A study of Mus musculus with 24 samples.

Results

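The cerebellum was compared with the cerebral cortex of 4 wild-type (WT) mice, which carry the same animal numbers in both regions, on 8 of the 24 arrays of the series, 1 array per animal and region. The comparison covered the 19572 rows of the value table that carry a gene, out of 22206 rows. The wider series also holds hippocampus, and the same 3 regions of 4 mice that lack glutamine synthetase, the enzyme that binds ammonia to glutamate, in liver only (KO). The WT animals carry no deletion per their labels, and the sources used here give neither strain, age and sex nor the Cre driver of the KO animals, and do not say whether tissue was pooled. The arrays of a shared animal number resembled each other less than the closest pair of unlike numbers in 3 of the 4 WT animals (correlations of their deviations 0.176, -0.191, 0.010 and 0.076), so that the regions came from the same mice rests on the labels. Total RNA was hybridised to arrays, and the deposited values are log2 signals summarised per gene by the authors. Biotin is given as the label in 1 field and a Cy3 cRNA kit in another, so the labelling chemistry remains unsettled. A difference below is cerebellum minus cortex on that log2 scale, so a difference of 1 is 2-fold and a value below 0 means lower in cerebellum. Its error is the moderated standard error (SE) of the fit over 4 animals. That SE is drawn towards a spread shared by all rows, with 11.5 prior against 3 residual degrees of freedom. Where the animals disagree, it is smaller than their own differences would give.

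Cerebellum and neocortex are built from different neurons. In the cerebellum, very many small glutamatergic granule cells send parallel fibres onto Purkinje cells, which are GABAergic and are the only output of the cerebellar cortex, with Bergmann glia ensheathing their synapses. In the neocortex, layered glutamatergic projection neurons with spiny dendrites predominate and are held in check by several classes of GABAergic interneuron. The regions also arise from different ends of the embryonic neural tube, the cerebellum from the anterior hindbrain and the cortex from the telencephalon, and adult neurons keep part of the transcription factor code of their origin.

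Some of the 8 arrays stood apart, which bears on several lists below. The cerebellum of animal 2 had a narrower distribution of values than the other 7 arrays (standard deviation over rows 2.464, against 2.516 to 2.610) and the highest mean over 13 choroid plexus markers, 10.88, against 8.42 to 9.76 in the other cerebella. The cerebellum of animal 3 had the lowest choroid plexus mean (8.42) and the highest means over 12 thalamic (10.19) and 17 brainstem markers (8.39). Among the cortices, animal 4 was highest in the thalamic (9.94) and brainstem (8.26) lists, animal 1 was lowest over 14 striatal markers (9.51, against 10.40 to 10.62), and animal 3 was lowest over 18 oligodendrocyte genes (11.12, against 11.92 to 12.39). Pituitary hormone genes were also high on the cortex array of animal 3: Gh was 17.46 there, against 7.78 to 10.25 in the other cortices, and Prl was 13.20, against 7.37 to 7.52. Where leaving out such an animal changed the calls of a list that these arrays mark, the counts without it are given beside the list. Correlations between arrays lay from 0.9916 to 0.9949 within cerebellum, from 0.9902 to 0.9958 within cortex and from 0.9383 to 0.9606 between the regions. The arrays matched their labels: the granule cell list averaged 13.06 to 13.46 in the 4 cerebella, against 8.97 to 9.22 in the 4 cortices, and the list of cortical projection neuron genes averaged 9.51 to 9.75, against 11.95 to 12.20. Both lists were chosen with earlier results of these data known, so they are no independent check.

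**Figure D1:**
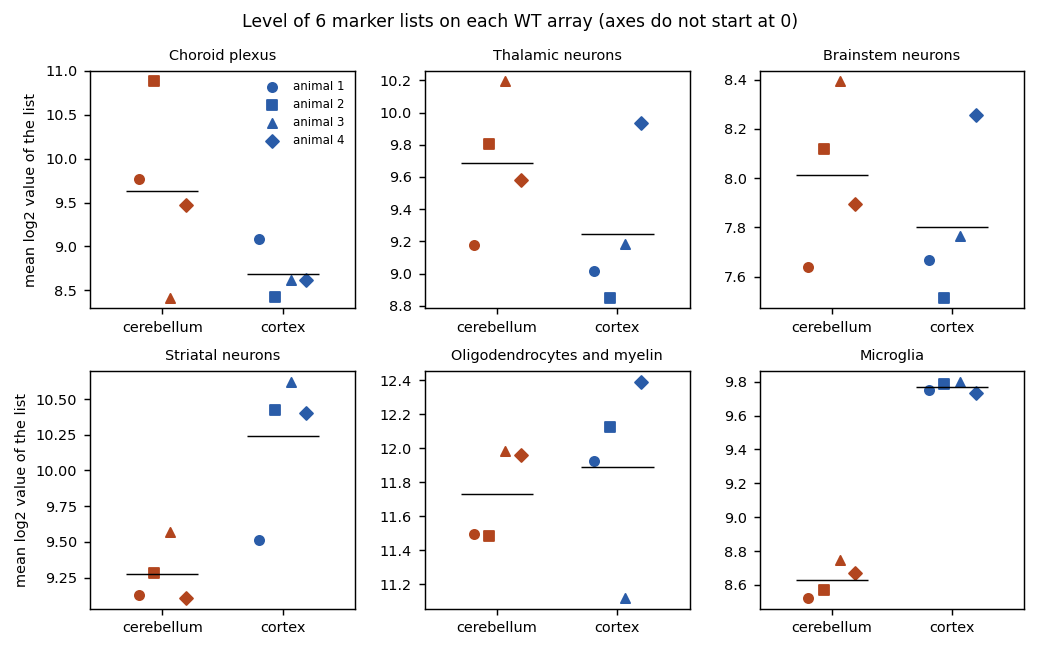
Mean deposited log2 value of 6 lists of marker genes on each WT array, cerebellum left of cortex, with a symbol per animal and a black line at the group mean. The microglia list separates the regions with no overlap, while the choroid plexus, thalamic and brainstem lists vary between animals within a region, with choroid plexus reaching 10.88 in the cerebellum of animal 2.

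Of the 19572 rows, 1964 (10%) differed by at least 2-fold with a limma adjusted p under 0.05, which is what "called" means below. Of these, 889 (4.54% of all rows) were higher in cerebellum and 1075 (5.49%) were lower. With the adjusted p alone, 6678 rows (34.1%) passed, 3565 higher and 3113 lower, and 4714 of them differed by less than 2-fold. In 1954 of the 1964 called rows all 4 animals differed in the same direction, and in 1943 the cerebella and the cortices did not overlap, which holds for 33.7% of all rows. The largest differences were higher in cerebellum, although more genes were lower: 9 genes were higher by 64-fold or more and 3 by 256-fold or more, against 4 and 0 lower. At 8-fold or more the order turned, with 85 genes higher and 151 lower. Among the 12 furthest above cortex was St18, a zinc finger factor, with 15.61, 15.01, 15.52 and 15.77 in cerebellum, against 9.37, 10.02, 9.04 and 9.66 in cortex (difference 5.95, SE 0.19). The median difference over all rows was -0.017 and the median SE was 0.133.

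**Figure D2:**
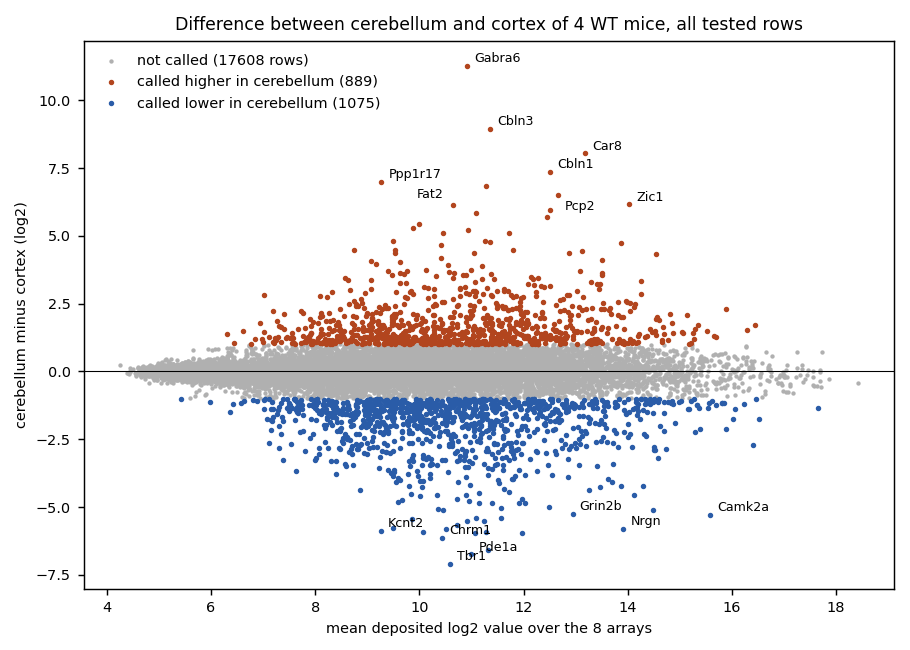
Difference between cerebellum and cortex (log2, vertical axis) against the mean deposited value over the 8 WT arrays (log2, horizontal axis), 1 point per row. Called genes are coloured by direction, 889 higher and 1075 lower, and Gabra6 at 11.28 and Tbr1 at -7.09 mark the ends of the range.

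Genes were then read by lists of pathways, families and cell types. In the metabotropic glutamate receptor list 90.0% of members were called, in the granule cell list 89.5% and in the list of cortical projection neurons 81.8%, beside the 10% of all rows. The lists with 0 called members were Hox genes, enzymes of glutamate, GABA and ammonia metabolism, endothelial and mural cells, ependyma, the respiratory chain, ribosomal proteins and reference genes. A member that was not called may still differ by less than 2-fold.

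**Figure D3:**
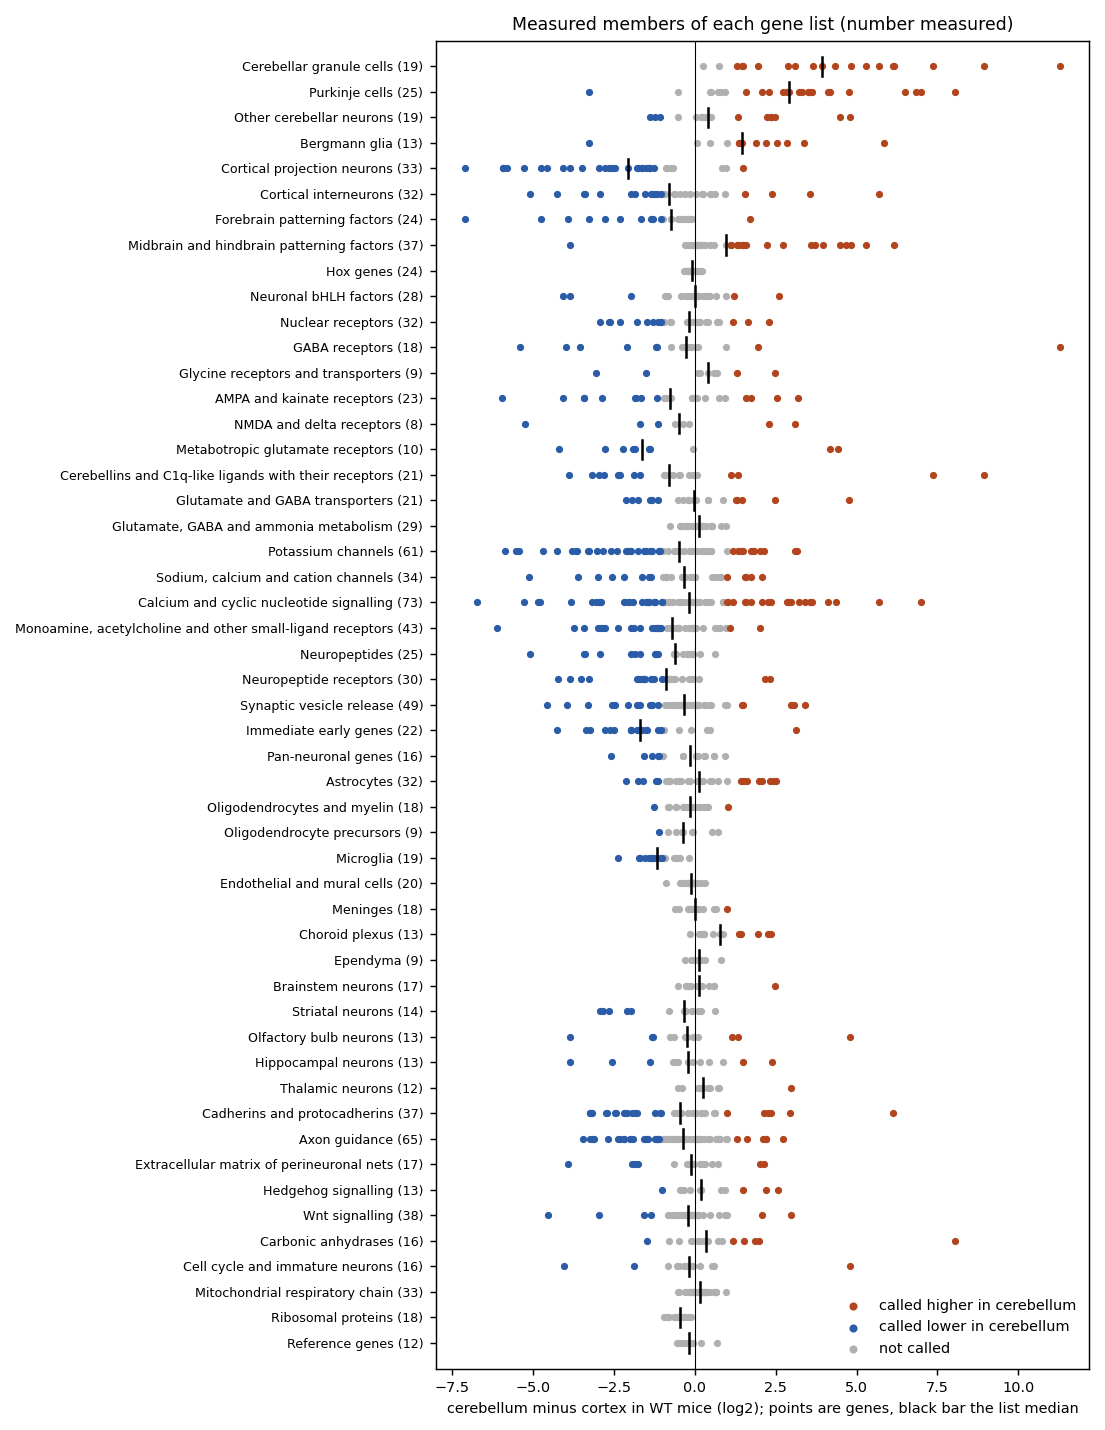
Difference between cerebellum and cortex in WT mice (log2, horizontal axis) for the measured members of each gene list, 1 point per gene, coloured by call, with a black bar at the list median. Granule cell genes lie to the right, with a median of 3.92, cortical projection neuron genes to the left, with a median of -2.08, and several receptor and channel families spread to both sides of 0.

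Granule cell genes carried the largest differences of the comparison. Of 19 measured genes of 20 listed, 17 were higher in cerebellum and 0 lower, with a median difference of 3.92. Gabra6, the GABA-A receptor subunit of granule cells (Entrez 14399), had values of 16.94, 15.96, 16.64 and 16.68 in the cerebella of animals 1 to 4, against 5.03, 5.50, 5.42 and 5.14 in their cortices. The cortical values are near the lower end of the scale, and the difference was 11.28 (SE 0.19, adjusted p = 7.01e-15). Cbln1, a secreted synapse organiser that granule cells release onto Purkinje cells, had 16.25, 15.78, 16.27 and 16.45 in cerebellum, against 8.94, 8.88, 8.30 and 9.19 in cortex, a difference of 7.36 (SE 0.16, adjusted p = 7.89e-14). Its relative Cbln3, which is secreted together with it, had 15.84, 15.47, 15.81 and 16.21, against 6.83, 6.76, 6.94 and 7.01. The lowest cerebellar value of each of these 3 genes came from animal 2, the array with the narrower distribution. Zic1, a zinc finger factor of granule cell precursors and their descendants, was higher by 6.17 (SE 0.13), and Fat2, a giant cadherin, by 6.14 (SE 0.14). Barhl1, a homeobox factor of the granule lineage, was higher by a smaller 1.30 (SE 0.14, adjusted p = 3.5e-06). The uncalled members were Tlx3, which differed by 0.76 (SE 0.12), and the potassium channel gene Kcnk9, by 0.26 (SE 0.12). In whole-tissue RNA such a difference cannot tell more cells of a type from more RNA per cell, here or in any list below.

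Purkinje cell genes followed. Of 25 measured genes of 30 listed, 18 were higher and 1 lower, with a median of 2.92. Car8, an inactive relative of the carbonic anhydrases that binds the inositol trisphosphate receptor, had 17.41, 16.49, 17.30 and 17.58 in cerebellum, against 9.31, 9.48, 8.88 and 8.92 in cortex. Ppp1r17, a phosphatase inhibitor that is a substrate of the cGMP-dependent kinase, had 12.84, 12.66, 12.60 and 12.96, against 5.71, 5.50, 5.88 and 5.98, and differed by 7.001 (SE 0.13, adjusted p = 1.46e-14). Pcp2, a regulator of Gi and Go proteins that is the classic Purkinje cell transcript, had 15.86, 15.75, 16.15 and 15.86, against 9.18, 9.66, 9.59 and 9.20. The regions did not overlap for any of these 3 genes. Arhgef33 was higher by 6.84 (SE 0.12). The calcium buffers Calb1 (3.64, SE 0.15) and Pvalb (3.56, SE 0.20), which cortical neurons also use, were higher as well. Bcl11a, a zinc finger repressor, was the exception and was lower, at -3.27 (SE 0.20), with 9.94, 9.90, 10.50 and 9.98 in cerebellum, against 13.70, 13.62, 12.77 and 13.32 in cortex. 

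The other neurons of the cerebellum gave a mixed picture, with 7 of 19 genes higher, 3 lower and a median of 0.42. Eomes, a T-box factor of unipolar brush cells, had 12.20, 12.25, 11.52 and 11.63 in cerebellum, against 7.18, 6.96, 6.96 and 7.27 in cortex (difference 4.81, SE 0.15). Tfap2b, an AP-2 factor of cerebellar inhibitory interneurons, was higher by 4.48 (SE 0.24); its cortex value in animal 4, 8.56, stood above the 6.75 to 6.94 of the other cortices. Slc6a5, the glycine transporter of glycinergic neurons such as Golgi cells, was higher by 2.49 (SE 0.17), and Kit, a receptor tyrosine kinase of molecular layer interneurons, by 2.36 (SE 0.14). Grm2, a metabotropic receptor of Golgi cells that cortex also uses, was lower, at -1.398. Lmx1a, a further marker of unipolar brush cells, differed by 0.20 (SE 0.15, adjusted p = 0.358) and its groups overlapped.

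Of the 13 Bergmann glia genes measured of 14 listed, 9 were higher and 1 lower, with a median of 1.47. Gdf10, a secreted factor of the BMP family, had 14.21, 13.78, 13.96 and 14.16 in cerebellum, against 7.89, 8.61, 8.03 and 8.14 in cortex (difference 5.86, SE 0.16, adjusted p = 1.28e-12). A2m, a protease inhibitor, was higher by 3.39 (SE 0.15), Timp4, an inhibitor of metalloproteinases, by 2.86 (SE 0.14), and Gria4, an AMPA receptor subunit, by 2.56 (SE 0.14). Septin4, a septin GTPase, was higher by 1.90 (SE 0.23), Slc1a3, the glial glutamate transporter GLAST, by 1.47 (SE 0.15), and Hopx, a small homeodomain protein, by 1.37 (SE 0.14). Npy1r, a receptor for neuropeptide Y that cortical neurons express, was lower, at -3.28 (SE 0.23).

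Genes of cortical projection neurons were lower in cerebellum for the most part. Of 33 measured genes of 36 listed, 26 were lower and 1 higher, with a median of -2.08. Tbr1, a T-box factor of early-born projection neurons, had 7.35, 7.21, 6.63 and 6.95 in cerebellum, against 14.38, 14.37, 13.93 and 13.82 in cortex (difference -7.09, SE 0.13, adjusted p = 1.29e-14). Nrgn encodes neurogranin, a calmodulin-binding protein of dendritic spines, and had 10.21, 11.26, 12.20 and 10.38, against 17.04, 16.92, 16.85 and 16.46 (difference -5.80, SE 0.24). Lmo3, a LIM-only cofactor of transcription, had 7.33, 8.13, 9.75 and 8.09, against 13.90, 13.81, 15.30 and 13.99 (difference -5.92, SE 0.16). The cerebellum of animal 3 was the highest cerebellum for Nrgn and Lmo3, the lowest for Tbr1. Neurod6 and Fezf2, factors of projection neurons, were lower, at -3.87 and -4.75, while Emx1, a homeobox factor of the dorsal telencephalon, differed by -0.72 (SE 0.13) and Neurod2 by 0.97 (SE 0.14), so both stayed under 2-fold. Sulf1, an extracellular sulfatase, was the member that was higher (1.501, SE 0.24), with a smaller distance in animal 3, 10.31 against 10.16. Among all rows, the 12 furthest below cortex also included Mal2, a membrane protein of polarised trafficking (-5.95, SE 0.26), Ddn, the spine protein dendrin (-5.81, SE 0.18), Vxn (-6.60, SE 0.17), Lamp5 (-5.93, SE 0.20), a lysosome-associated membrane protein, and Dbpht2 (-5.79, SE 0.14).

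That order of the cerebella was common among the genes well below cortex. Of the 151 genes lower by 8-fold or more, the cerebellum of animal 3 was the highest of the 4 cerebella in 102 and that of animal 1 the lowest in 89. Mal2 showed it with 7.72, 9.20, 10.11 and 8.96 in cerebellum, against 15.03, 15.03, 14.92 and 14.81 in cortex. Among the 85 genes higher by 8-fold or more, the cerebellum of animal 2 was the lowest of the 4 cerebella in 64. The thalamic and brainstem lists ran in the same order of cerebella as Mal2, animals 1, 4, 2 and 3 from low to high, and their part in these values was not tested.

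Interneuron genes of the cortex were called in both directions. Of 32 measured genes of 35 listed, 13 were lower in cerebellum and 4 higher, with a median of -0.78. Sst, the peptide somatostatin, had 10.61, 12.39, 13.67 and 11.08 in cerebellum, against 17.01, 16.85, 17.47 and 16.85 in cortex (difference -5.11, SE 0.29, adjusted p = 2.41e-09). The cerebella spread more than the cortices and followed the order of the thalamic list. Vip, which marks another interneuron class, had 6.84, 7.08, 6.95 and 6.56, against 10.56, 10.60, 10.04 and 9.91 (difference -3.42, SE 0.14). Cck was lower, at -3.40 (SE 0.17), Npy at -1.86 (SE 0.17), Lhx6, a factor of interneurons from the medial ganglionic eminence, at -1.34 (SE 0.13), and Kcnc2, a channel of fast-spiking cells, at -4.26 (SE 0.34). The members that were higher were Calb2, which encodes calretinin (5.68, SE 0.22), Pvalb (3.56), Prox1 (2.40, SE 0.14) and Nos1, neuronal nitric oxide synthase (1.56, SE 0.19). Calb2 also stands in the granule cell list and Pvalb in the Purkinje cell list, and which cells gave these values was not tested. The GABA-producing enzymes Gad1 and Gad2, shared by inhibitory neurons of both regions, differed by 0.51 (SE 0.14) and 0.25 (SE 0.15).

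Over the wider list of neuropeptides, 10 of 25 measured genes of 26 listed were lower and 0 higher. Besides the interneuron peptides, Tac1, the precursor of substance P, was lower, at -2.93 (SE 0.23), and its cerebellar values ran from 6.33 in animal 1 to 9.48 in animal 3. The somatostatin promoter is the textbook site of the cAMP response element, and it is shown here because Sst was the peptide gene with the largest difference. The sequence runs from 250 bases before to 50 bases after the annotated start (RefSeq, GRCm38.p6, chr16:23890795-23891094, minus strand), with the letters TGACGTCA in capitals, 48 bases before the start site.
Sst promoter: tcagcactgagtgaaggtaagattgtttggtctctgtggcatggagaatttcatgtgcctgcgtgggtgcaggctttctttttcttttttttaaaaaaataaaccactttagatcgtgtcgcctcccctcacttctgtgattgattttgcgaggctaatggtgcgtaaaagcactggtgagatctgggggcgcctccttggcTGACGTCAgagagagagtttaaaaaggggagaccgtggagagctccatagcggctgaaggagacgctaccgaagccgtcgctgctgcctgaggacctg
Searched on either strand, those letters occurred in the promoters of 2.86% of the 839 genes called lower that have a promoter in the table, in 2.83% of the 707 called higher and in 2.63% of all 15691. A match describes the letters in this window.

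The called members of the 2 lists of brain patterning factors lay mostly in opposite directions, with 18 of 37 and 13 of 24 members not called. Zic1, Zic2 and Mab21l1 of the hindbrain list also stand in the granule cell list, so these lists are not independent. Of 37 measured genes of the midbrain and hindbrain list (38 listed), 18 were higher in cerebellum and 1 lower, with a median of 0.98. En2, engrailed 2, had 11.69, 11.44, 11.28 and 11.62 in cerebellum, against 7.80, 8.17, 7.60 and 8.13 in cortex (difference 3.58, SE 0.14, adjusted p = 2.65e-11). Its partner En1 differed by 0.59 (SE 0.15) and was under 2-fold. Zic2 was higher by 4.82 (SE 0.16), Mab21l1 by 5.28 (SE 0.21), Barhl2, a homeobox relative of Barhl1, by 4.66 (SE 0.14), and Pax2 by 1.33 (SE 0.15), while Pax5 (0.05, SE 0.14) and Pax8 (-0.07, SE 0.12) did not pass. Meis2, a TALE homeobox factor, was the opposite case, lower, at -3.87 (SE 0.28), with 8.41, 10.47, 11.31 and 9.39 in cerebellum, against 13.24, 13.68, 13.94 and 14.21 in cortex. None of the 24 Hox genes measured of 30 listed was called at 2-fold, and their differences ran from -0.33 to 0.22, Hoxa2, the Hox gene expressed furthest forward in the hindbrain, having the highest.

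Of 24 forebrain patterning genes measured of 28 listed, 10 were lower in cerebellum and 1 higher, with a median of -0.74. Tbr1, Emx1 and Fezf2 of this list also stand in the list of cortical projection neurons. Lhx2, a LIM homeobox selector gene of the cortex, had 7.32, 8.01, 7.88 and 7.35 in cerebellum, against 11.87, 11.68, 11.62 and 11.07 in cortex (difference -3.92, SE 0.15). Emx2 was lower, at -1.67 (SE 0.16), while Otx1 (-0.52, SE 0.14) and Six3 (-0.31, SE 0.16) stayed under 2-fold. Zbtb18, a zinc finger repressor listed for its role in cortical neurons, was higher by 1.72 (SE 0.17), with 15.66 to 16.62 in cerebellum, against 14.30 to 14.68 in cortex.

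Nuclear receptors gave 3 genes higher and 9 lower of 32 measured of 36 listed. The orphan receptors of the ROR family moved apart: Rora, whose loss is the staggerer mutation of Purkinje cells, was higher by 2.29 (SE 0.13), and Rorb, a marker of cortical layer 4, was lower, at -2.65 (SE 0.16). Both thyroid hormone receptor genes were lower, Thrb at -2.94 (SE 0.13) and Thra at -1.13 (SE 0.13). Among 28 neuronal basic helix-loop-helix genes measured of 31 listed, 2 were higher and 3 lower: Npas2, a relative of the circadian gene Clock, was lower, at -4.07 (SE 0.15), and Nhlh2 was higher by 2.59 (SE 0.18), with cortex values of 6.86 and 7.02 in animals 1 and 2 and of 7.997 and 7.94 in animals 3 and 4.

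Within receptor families, members were called in both directions. Of 18 GABA receptor genes measured of 21 listed, 2 were higher and 6 lower in cerebellum, with a median of -0.29. Besides Gabra6, the delta subunit Gabrd, its partner in extrasynaptic receptors of granule cells, was higher by 1.96 (SE 0.14). Gabra5, the alpha subunit of extrasynaptic receptors in hippocampus and deep cortex (Entrez 110886), had 7.59, 9.07, 10.25 and 8.54 in cerebellum, against 14.06, 13.84, 14.62 and 14.54 in cortex (difference -5.40, SE 0.26, adjusted p = 2.62e-10). Gabrg3 was lower, at -3.99 (SE 0.19), Gabra3 at -3.55 (SE 0.17), Gabra4 at -2.11 (SE 0.15) and Gabra2 at -1.16 (SE 0.18). For Gabra2 the regions overlapped across animals, though each cerebellum was below its own cortex: the values were 12.62, 12.74, 12.70 and 10.86, against 13.63, 13.21, 14.50 and 12.22. Without animal 3 the Gabra2 difference was -0.95 and not called. Gabrb2, a widely used beta subunit, differed by 0.98 (SE 0.14) and was just under 2-fold.

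The promoters of the alpha subunit genes with the largest differences each way are shown because their transcripts parted furthest of any members of the family. Both are from RefSeq on GRCm38.p6, 250 bases before to 50 after the start, for Gabra6 at chr11:42321023-42321322 and for Gabra5 at chr7:57510010-57510309, each on the minus strand. Capitals mark the E-box letters CAGATG, a core that proneural factors of the NeuroD kind bind, which lie 223 bases before the start of Gabra5 and are not in this window of Gabra6.
Gabra6 promoter: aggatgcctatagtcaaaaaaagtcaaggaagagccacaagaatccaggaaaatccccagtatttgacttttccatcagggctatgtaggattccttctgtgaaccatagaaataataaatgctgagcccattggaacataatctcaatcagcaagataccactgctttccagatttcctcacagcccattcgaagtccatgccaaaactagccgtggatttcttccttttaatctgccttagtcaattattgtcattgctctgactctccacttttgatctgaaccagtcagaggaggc
Gabra5 promoter: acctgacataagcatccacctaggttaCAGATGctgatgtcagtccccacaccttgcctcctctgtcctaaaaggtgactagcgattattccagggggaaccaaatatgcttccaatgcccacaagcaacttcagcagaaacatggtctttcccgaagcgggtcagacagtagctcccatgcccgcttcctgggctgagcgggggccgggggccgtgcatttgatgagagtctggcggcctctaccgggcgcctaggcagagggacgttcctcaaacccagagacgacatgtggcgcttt
Searched on both strands, CAGATG occurred in 14.4% of the promoters of genes called higher, in 18.2% of those called lower and in 16.3% of all. A second E-box core, CAGCTG, occurred in 19.9% of the promoters of genes called higher, 24.7% of those called lower and 18.0% of all. For TAGGTCA, a site that ROR receptors bind, the shares were 3.54%, 1.79% and 2.63%. The other letters searched gave 3.96%, 2.98% and 4.10% for the MEF2 motif, 6.79%, 7.87% and 8.35% for TGANTCA (AP-1), 0%, 0% and 0.0446% for the full NFI palindrome, and 0%, 0.119% and 0.102% for an SRF (CArG box) motif, in the same order. These are shares of windows that hold the letters and were given no test.

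Of 9 genes of glycine receptors and transporters, 2 were higher and 2 lower. The transporters Slc6a5 and Slc6a9 were higher, by 2.49 and 1.30, while the receptor subunits Glra3 (-3.05, SE 0.21) and Glra2 (-1.51, SE 0.15) were lower. Glra1, the adult subunit of brainstem and spinal cord, did not pass in WT (0.61, SE 0.50), with 7.34, 9.001, 9.81 and 8.66 in cerebellum, against 7.15, 6.69, 7.61 and 10.93 in cortex. Its highest value was the cortex of animal 4, the cortex highest in brainstem markers, a list that includes Glra1 itself.

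Ionotropic glutamate receptors changed in subunits and in auxiliary proteins. Of 8 NMDA and delta receptor genes measured of 10 listed, 2 were higher and 3 lower. Grin2c, the NMDA subunit of mature granule cells, had 12.74, 12.46, 13.12 and 13.08 in cerebellum, against 9.44, 9.75, 10.21 and 9.63 in cortex (difference 3.095, SE 0.14). Grin2b, the subunit that gives forebrain receptors slow kinetics, had 9.99, 10.25, 10.68 and 10.33, against 15.60, 15.68, 15.70 and 15.28 (difference -5.25, SE 0.14, adjusted p = 7.39e-13). Grin2a was lower, at -1.12 (SE 0.14), and at -0.99 without animal 2, just under the threshold. Grid2ip, the scaffold delphilin at parallel fibre synapses, was higher by 2.31 (SE 0.14) and the delta receptor gene Grid1 was lower, at -1.69 (SE 0.13).

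Of 23 genes of AMPA and kainate receptors and their partners measured of 24 listed, 4 were higher and 9 lower, with a median of -0.75. Among the pore-forming AMPA subunits, Gria4 was higher by 2.56 and Gria3 was lower, at -1.16, while Gria1 differed by 0.06 (SE 0.14) and Gria2 by -0.94 (SE 0.15). Several auxiliary proteins had larger differences. Neto1, a partner of kainate receptors, had 7.62, 8.15, 8.54 and 8.01 in cerebellum, against 13.998, 14.31, 14.15 and 13.76 in cortex (difference -5.97, SE 0.14, adjusted p = 2.56e-13). Cacng3, a transmembrane AMPA receptor regulator, was lower, at -4.08 (SE 0.14), Shisa7 at -3.43 (SE 0.12) and the cornichon Cnih3 at -3.42 (SE 0.15), while Shisa6 was higher by 3.18 (SE 0.17). 

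Nearly every metabotropic glutamate receptor gene or partner was called, 2 higher and 7 lower of 10 measured of 13 listed. Grm4, the presynaptic receptor of parallel fibres, had 15.58, 15.12, 15.30 and 15.31 in cerebellum, against 11.01, 10.95, 10.54 and 11.08 in cortex (difference 4.43, SE 0.14). Grm5, the main postsynaptic receptor of the forebrain, had 8.07, 9.26, 9.44 and 8.72, against 13.12, 13.09, 13.03 and 12.997 (difference -4.19, SE 0.19). The Homer scaffolds that bind such receptors were likewise called in both directions: Homer3 was higher by 4.19 (SE 0.14), Homer1 lower, at -2.77 (SE 0.16) and Homer2 lower, at -2.21 (SE 0.13). 

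**Figure D4:**
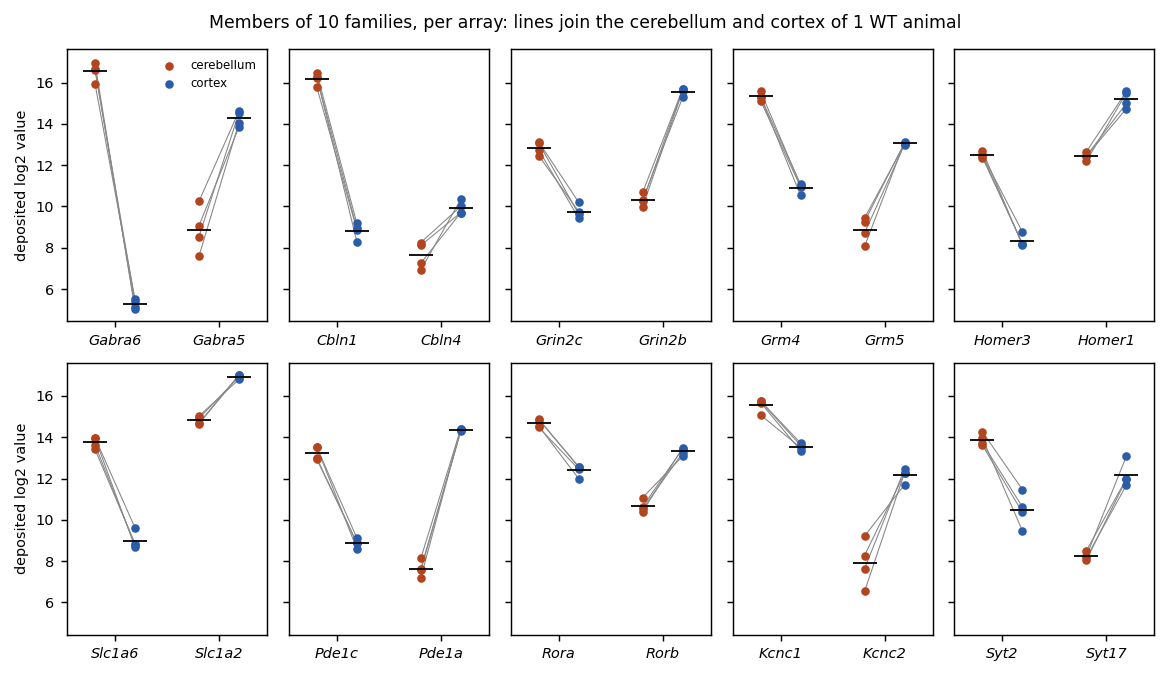
Deposited log2 values of 20 genes in 10 families on each WT array, cerebellum (left) and cortex (right) of 1 animal joined by a line, black bars at the group means. The families were picked after the values were seen, for having members called in opposite directions; within each panel the left gene is higher and the right gene lower in cerebellum, in 4 of 4 animals, and levels of different genes are not comparable.

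Cerebellins, the related C1q-like proteins and their binding partners were divided in the same way, with 4 of 21 measured genes higher and 8 lower of 23 listed. Opposite to Cbln1 and Cbln3, Cbln4 was lower, at -2.31 (SE 0.23), and Cbln2 at -2.80 (SE 0.42), for which animal 3 gave 8.94 in cerebellum, against 9.28 in cortex. C1ql3 was lower, at -3.19 and the postsynaptic organiser Lrrtm4 at -3.88, while Nrxn3, a presynaptic neurexin, was higher by 1.33.

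Of 21 glutamate, GABA and related transporter genes measured of 22 listed, 5 were higher and 6 lower. Slc1a6, the glutamate transporter EAAT4 of Purkinje cell spines, had 13.96, 13.42, 13.64 and 13.97 in cerebellum, against 8.68, 8.85, 8.78 and 9.62 in cortex (difference 4.77, SE 0.15). The glial transporters parted: Slc1a3 was higher by 1.47, and Slc1a2, the GLT-1 transporter, was lower, at -2.12 (SE 0.14), with 14.65 to 15.02 in cerebellum, against 16.80 to 17.01 in cortex. Slc1a1, the neuronal transporter EAAC1, was lower, at -1.95 (SE 0.14), and Slc17a7, the vesicular glutamate transporter of cortical and granule cells alike, at -1.75 (SE 0.15). Slc17a6, the vesicular transporter of thalamus and brainstem, varied between animals (8.41, 10.54, 12.08 and 9.999 in cerebellum, against 10.52, 9.65, 10.34 and 12.52 in cortex) and did not pass (-0.50).

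The enzymes that make and break down glutamate, GABA and ammonia were not called at 2-fold in either direction. None of 29 measured genes of 36 listed was called, with differences from -0.76 to 0.96 and a median of 0.12. With each array centred on its median, and likewise without animal 2, 1 was called higher. Got1, an aspartate aminotransferase, differed by 0.03 (SE 0.13, 95% interval -0.25 to 0.31), and Got2 by -0.25 (SE 0.13).

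Potassium channels were the largest channel family measured, 61 genes of 67 listed, and 11 were higher in cerebellum and 26 lower, with a median of -0.50. Kcnk10 (3.15, SE 0.12), a background channel, and Kcnj12 (3.101, SE 0.15), an inward rectifier, led the genes that were higher, followed by Kcnd2, the A-type channel of granule cells (2.13, SE 0.14), and Kcnc1, a channel of fast-firing neurons (2.02, SE 0.14). Those lower were further away. Kcnt2, a sodium-activated channel, had 6.01, 5.95, 6.78 and 6.53 in cerebellum, against 12.38, 12.64, 11.92 and 11.86 in cortex (difference -5.88, SE 0.21, adjusted p = 1.7e-11). Kcnip2, a partner of A-type channels, had 7.72, 8.57, 9.41 and 7.76, against 13.71, 13.98, 14.15 and 13.31 (difference -5.42, SE 0.17). The modifier subunit Kcnv1 was lower, at -5.53 (SE 0.17) and Kcnh5 at -4.69 (SE 0.38), with cerebellar values of Kcnh5 from 6.79 to 9.98 in the order of the thalamic list. Kcna1, a channel of basket cell terminals, was higher by 1.19 (SE 0.15).

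Of 34 sodium, calcium and other cation channel genes measured of 40 listed, 5 were higher and 8 lower. Cacna1a, the P/Q-type calcium channel of Purkinje cells, was higher by 1.56 (SE 0.15), its alpha2delta partner Cacna2d2 by 2.08 (SE 0.13), Fgf14, a sodium channel regulator mutated in an ataxia, by 1.58 (SE 0.16), and Trpc7 by 1.73 (SE 0.15). Scn3b, a sodium channel beta subunit, had 6.73, 7.96, 9.29 and 7.55 in cerebellum, against 12.93, 12.77, 13.58 and 12.76 in cortex (difference -5.13, SE 0.22). Cacnb1, a calcium channel beta subunit, was lower, at -3.62 (SE 0.14).

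Calcium and cyclic nucleotide signalling held many called genes in both directions, 20 higher and 26 lower of 73 measured of 86 listed, with a median of -0.19 (-0.38 without animal 1 and -0.09 without animal 2). Of the calcium/calmodulin-stimulated phosphodiesterases, Pde1c and Pde1a lay in opposite directions: Pde1c had 13.52, 12.93, 12.99 and 13.51 in cerebellum, against 8.60, 8.89, 8.87 and 9.12 in cortex (difference 4.37, SE 0.15). Pde1a had 7.19, 7.63, 8.13 and 7.56, against 14.42, 14.33, 14.42 and 14.28 (difference -6.74, SE 0.15, adjusted p = 1.11e-13). The regulators of G protein signalling moved apart as well, Rgs8 being higher by 4.13 (SE 0.13) and Rgs4 lower, at -4.85 (SE 0.19). Among the calmodulin kinases, Camk2a, the kinase of forebrain spines, was lower, at -5.28 (SE 0.16), with 12.62 to 13.48 in cerebellum, against 18.10 to 18.46 in cortex, while Camk4, a nuclear kinase of granule cells, was higher by 2.37 (SE 0.17). Camk2b, the beta isoform of the same kinase, differed by -0.02 (SE 0.13), with the sign turned when each array was centred on its median (0.02). Hpcal4, a neuronal calcium sensor, was lower, at -4.79 (SE 0.16).

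Of 43 receptor genes for acetylcholine, monoamines and other small ligands measured of 54 listed, 18 were lower and 2 higher, with a median of -0.72. Against a test for more than 2-fold, 11 were lower and 1 higher. Chrm1, the M1 muscarinic receptor, had 7.39, 7.86, 7.28 and 6.94 in cerebellum, against 13.72, 13.53, 13.58 and 13.15 in cortex (difference -6.13, SE 0.14, adjusted p = 1.61e-13). Chrm4 was lower, at -3.74 (SE 0.16), the serotonin receptor Htr2a at -3.44 (SE 0.14) and the histamine receptor Hrh3 at -2.99 (SE 0.12). Cnr1, the cannabinoid receptor found on parallel fibre terminals, was higher by 2.01 (SE 0.14), with 14.43 to 15.22 in cerebellum, against 12.59 to 13.22 in cortex, and Chrnb4 by 1.08 (SE 0.14), a call not made without animal 4 (0.96).

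Of 30 neuropeptide receptor genes 14 were lower and 2 higher. Receptors for somatostatin were among them, Sstr2 lower, at -4.22 (SE 0.15) and Sstr4 lower, at -3.86 (SE 0.14), alongside Cckbr, the brain receptor for cholecystokinin, lower, at -3.53 (SE 0.19). Crhr1, the receptor for corticotropin-releasing hormone, which climbing fibres release in cerebellum, was higher by 2.18 (SE 0.14), and Vipr2 by 2.34 (SE 0.25).

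Synaptic vesicle genes were closer between the regions, with 5 of 49 measured genes of 52 listed higher, 12 lower and a median of -0.35. The calcium sensors of release differed by isoform: Syt2, the synaptotagmin of fast hindbrain synapses, was higher by 3.41 (SE 0.21) and Syt9 by 3.07 (SE 0.16), whereas Syt1, that of the forebrain, was lower, at -1.33 (SE 0.15) and Syt17 at -3.94 (SE 0.19). Unc13c, the Munc13 priming factor of granule cells, was higher by 2.98 (SE 0.17). Stx1a, a plasma membrane SNARE, had 8.003, 8.28, 8.37 and 7.54 in cerebellum, against 13.03, 12.82, 12.62 and 11.98 in cortex (difference -4.56, SE 0.14), while its SNARE partner Snap25 differed by 0.03 (SE 0.15). Of 16 pan-neuronal genes 5 were lower, led by Uchl1, a ubiquitin hydrolase (-2.58, SE 0.13), and Thy1, a surface glycoprotein of projection neurons (-1.58, SE 0.13). Rbfox3, the NeuN antigen, differed by 0.58 (SE 0.15).

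Immediate early genes, which neurons switch on with activity, were lower in cerebellum in 16 of 22 cases and higher in 1, with a median of -1.70. Arc, a protein of active synapses, had 9.49, 9.16, 9.52 and 9.15 in cerebellum, against 13.09, 13.09, 12.04 and 12.53 in cortex (difference -3.36, SE 0.18, adjusted p = 1.2e-09). Egr1 had 10.60, 10.95, 11.83 and 12.002, against 15.56, 15.77, 15.22 and 15.82 (difference -4.25, SE 0.21), and Egr3 was lower, at -3.25 (SE 0.17) in its brightest row. The 3 rows of Egr3 disagreed in size, the others giving -2.67 and -0.84. Fosb was lower, at -1.63 (SE 0.14), while Fos itself differed by -0.50 (SE 0.15) and was not 2-fold. Dusp5, a nuclear phosphatase of ERK, had 14.42, 13.56, 14.20 and 14.11, against 11.06, 10.89, 10.63 and 11.16, and was higher by 3.14 (SE 0.15).

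Of 19 microglia genes measured of 20 listed, 13 were lower in cerebellum and 0 higher. Against a test for more than 2-fold, 4 were lower, and with 1 animal left out at a time, 11 to 13 were. All 19 had a difference below 0, with a median of -1.17, and the list mean was 8.52 to 8.75 in the 4 cerebella, against 9.73 to 9.80 in the 4 cortices. P2ry12, the purinergic receptor of resting microglia, had 9.30, 9.69, 9.99 and 9.76 in cerebellum, against 11.94, 12.36, 12.04 and 11.91 in cortex (difference -2.38, SE 0.14, adjusted p = 3.22e-09). Cx3cr1, the fractalkine receptor, had 6.76, 7.10, 6.96 and 6.83, against 8.46, 8.26, 8.60 and 8.47 (difference -1.53, SE 0.13). Csf1r, the receptor microglia need to survive, was lower, at -1.69 (SE 0.14), Laptm5 at -1.73 (SE 0.12) and the complement gene C1qa at -1.19 (SE 0.13), while Tmem119 differed by -0.58 (SE 0.13). 

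Astrocyte genes divided, 9 higher and 5 lower of 32, with a median of 0.12 (0.01 without animal 3 and 0.28 without animal 4). Higher were Slc4a4, a bicarbonate cotransporter (2.50, SE 0.14), Lcat, a lipid acyltransferase (2.43, SE 0.13), Aqp4, the water channel of endfeet (2.33, SE 0.15), and Agt, angiotensinogen (2.07, SE 0.27). Aqp4 had 14.97, 14.55, 14.77 and 15.00 in cerebellum, against 12.18, 12.12, 12.56 and 13.11 in cortex. Lower, besides Slc1a2, were Mfge8, a bridging protein of phagocytosis (-1.76, SE 0.14), and Gpc5, a glypican (-1.61, SE 0.17). Gfap, the intermediate filament of astrocytes, differed by -0.42 (SE 0.17) and Aldh1l1 by -0.15 (SE 0.14), and in each the regions overlapped.

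Of 18 oligodendrocyte genes measured of 20 listed, 1 was higher and 1 lower, a share near the 10% of all rows, with a median of -0.16. Without animal 3 the median was -0.51, with 0 higher and 1 lower, and without animal 2 it was 0.03. Mbp, myelin basic protein, had 16.39, 16.06, 16.79 and 16.81 in cerebellum, against 16.67, 16.92, 15.66 and 17.09 in cortex (difference -0.07, SE 0.23). Trf, transferrin, was higher by 1.03 (SE 0.22) and was not called without animal 3 (0.63), whose cortex had the lowest myelin list. Of 9 precursor genes only Gpr17 was called, lower, at -1.10 (SE 0.16), and it was not called without animal 3 (-0.96). None of the 20 endothelial and mural cell genes was called, nor any of the 9 ependymal genes. Without animal 2, 1 gene of the endothelial and mural list was called lower.

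Choroid plexus markers were higher in 5 of 13 cases measured of 15 listed, and these calls rested on few animals. Ttr, transthyretin, had 16.50, 17.09, 9.65 and 15.89 in cerebellum, against 15.28, 11.61, 11.71 and 11.43 in cortex (difference 2.27, SE 0.79, adjusted p = 0.0357). Its difference was 1.21 without animal 2 and 1.54 without animal 4, and neither was called; nor was it called without the animal block. Without animal 2, and likewise without animal 4, 2 of the 13 were called, with 4 without animal 1, and 7 without animal 3 (median 1.19, against 0.77 over all 4 animals). Without the animal block, or with it as a random block, 2 of the 13 were called, and 1 with a robust prior spread. Thalamic markers were called in 1 of 12 cases, Prkcd, a protein kinase C (2.98, SE 0.15), and in 3 of 12 without animal 4, with 1 higher and 1 lower without animal 3; the shared factor Tcf7l2 had 11.01, 13.43, 14.73 and 12.56, against 11.18, 11.21, 11.22 and 15.09. Of 14 striatal markers 5 were lower, among them Drd1 (-2.83, SE 0.16) and Drd2 (-1.98, SE 0.26), the dopamine receptors of striatal output neurons. The cortex of animal 1 was the lowest cortex for Drd2, with 7.89, against 10.15 to 11.07 in the other cortices. Without animal 1 the Drd2 difference was -2.31, and 5 of the 14 striatal markers were again lower (median -0.48, against -0.32). Without animal 3 the striatal counts were 1 higher and 5 lower. In the list of 17 brainstem genes Slc6a5 alone passed; without animal 3 the counts were 1 higher and 1 lower, and without animal 4 they were 2 higher and 0 lower.

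Adhesion molecules and guidance cues were more often lower than higher. Of 37 cadherins and protocadherins measured of 38 listed, 6 were higher and 16 lower: beside Fat2, Fat1 (2.94, SE 0.16), Cdh7 (2.34, SE 0.16) and Cdh18 (2.25, SE 0.14) were higher, and Pcdh10 (-3.25, SE 0.15), Pcdh7 (-3.23, SE 0.18), Cdh9 (-3.18, SE 0.13) and Cdh6 (-2.75, SE 0.20) were lower. Pcdh10 had 8.90, 8.87, 9.82 and 8.97 in cerebellum, against 12.24, 12.41, 12.49 and 12.41 in cortex. Of 65 axon guidance genes measured of 70 listed, 6 were higher and 19 lower. The Eph receptor Epha4 was lower, at -3.46 (SE 0.16) and the repellent Slit1 at -3.15 (SE 0.12), while the netrin Ntn4 was higher by 2.73 (SE 0.13) and its receptor family member Unc5b by 2.21 (SE 0.13). Among 17 matrix genes, Ncan, the proteoglycan neurocan, was lower, at -3.91 (SE 0.14), and Reln, which granule cells secrete, and Tnc, which Bergmann glia make, were higher by 2.15 (SE 0.14) and 2.00 (SE 0.12).

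Hedgehog signalling, through which Purkinje cells drive granule cell precursors in development, had 3 of 13 genes higher and 1 lower of 14 listed. The receptor Ptch1 was higher by 2.19 (SE 0.15), the co-receptors Boc by 2.57 (SE 0.15) and Cdon by 1.505 (SE 0.18), while the target Gli1 differed by 0.82 (SE 0.15). Of 38 Wnt pathway genes of 39 listed, 2 were higher, the receptors Fzd7 (2.98, SE 0.14) and Fzd1 (2.07), and 4 lower, led by Dkk3, a secreted relative of Wnt inhibitors, with 8.59, 8.65, 8.56 and 8.67 in cerebellum, against 13.43, 13.32, 12.32 and 13.59 in cortex (difference -4.55, SE 0.17). Of 16 carbonic anhydrases 5 were higher, Car4 (2.00, SE 0.14) and Car7 (1.86, SE 0.16) after Car8, and Car11 was lower, at -1.48 (SE 0.14). Among genes of dividing and immature cells, Ccnd2, cyclin D2, was lower, at -4.04 (SE 0.14), with 7.89 to 8.37 in cerebellum, against 11.59 to 12.41 in cortex, and Dcx, doublecortin, at -1.88 (SE 0.13), while Mki67, a marker of proliferation, differed by -0.33 (SE 0.15).

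General cell functions held no called gene. None of 33 genes of the respiratory chain measured of 34 listed was called, with differences from -0.51 to 0.98. With each array centred on its median, and likewise without animal 2 or without animal 4, 1 was called higher. None of 18 ribosomal protein genes of 26 listed was called either, yet all 18 had a difference below 0, with a median of -0.46 and values from -0.94 to -0.12. Without animal 3, 1 ribosomal protein gene was called lower. Of 12 reference genes of 14 listed, 0 were called: Gapdh differed by -0.15 (SE 0.15; 0.10 after quantile normalization), Hprt by -0.07 (SE 0.13), Actb by -0.54 (SE 0.13), Ppia by -0.48 (SE 0.14) and Tbp by 0.68 (SE 0.13).

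The hippocampus of the same WT animals, a further part of the forebrain, usually lay nearer the cortex. Its mean was closer to the cortex mean than to the cerebellum mean for 822 of the 889 genes called higher (92.5%) and for 978 of the 1075 called lower (91.0%). Gabra6 was 5.16 ± 0.14 in hippocampus (SD, n = 4) and Chrm1 13.69 ± 0.12, each near its cortex values. Genes that departed from this included Prox1, a factor of dentate granule cells, at 12.21 ± 0.45 in hippocampus, and Shisa6, at 13.85 ± 0.46, each nearer its cerebellum values. The level was low in the lower region for many large differences: the cortex mean lay below 8.87, the median of all values, for 42 of the 85 genes higher by 8-fold or more, and the cerebellum mean for 81 of the 151 lower.

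In KO animals the same comparison gave 1590 called rows (8.12%), 711 higher (3.63%) and 879 lower (4.49%). Of the genes called in WT, 620 of the 889 higher (69.7%) and 799 of the 1075 lower (74.3%) were called the same way in KO animals, and 0 were called the opposite way. The sign matched for 884 of 889 and for 1070 of 1075. Gabra6 differed by 10.93 in KO animals, Chrm1 by -6.33, Grin2b by -4.73, Arc by -3.14 and P2ry12 by -1.94. The list counts were alike for granule cells (17 of 19 higher), Purkinje cells (19 of 25 higher, 1 lower) and projection neurons (27 of 33 lower). Of the 19 microglia genes, 6 were lower in KO animals, with a median of -0.84. The microglia list mean spread from 8.68 to 9.41 over the KO cerebella, with a median array of 8.75, against 9.74 to 9.85 over the KO cortices. The part of the highest KO cerebellum in that count was not tested. The difference was smaller in KO than in WT animals for 1639 of the 1964 genes, which were chosen for their WT difference.

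Arrays of the KO animals also stood apart. The cortices of KO animals 1 and 4 averaged 12.09 and 11.47 over 13 olfactory bulb markers, against 8.59 and 8.65 in the other KO cortices, and the cerebellum of KO animal 3 averaged 10.32 over the list of brainstem neurons, against 8.07 to 8.35 in the other KO cerebella. Eomes, which olfactory bulb neurons also express, differed by 2.23 in KO animals, against 4.81 in WT, and Calb2 by 3.12, against 5.68. Without KO animals 1 and 4, 66.1% of the WT calls were made again, and without KO animal 3, 78.9%. Tested directly, the difference between regions changed with genotype for 0 genes (limma, smallest adjusted p = 0.0588), with 1228 at an unadjusted p under 0.05; without KO animal 4 it was 1 gene. A p that misses the threshold does not show that the genotypes are alike.

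**Figure D5:**
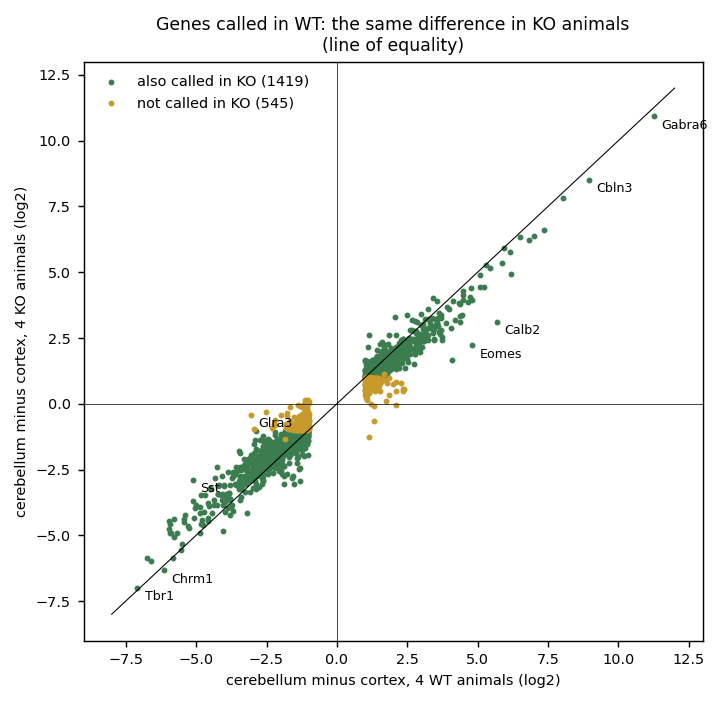
Cerebellum minus cortex (log2) in 4 KO animals (vertical axis) against the same difference in 4 WT animals (horizontal axis) for the 1964 genes called in WT, with the line of equality. Points run from Tbr1 to Gabra6, with the difference smaller in KO than in WT for 1639 of the genes (83.5%). Eomes (2.23 in KO, 4.81 in WT) and Calb2 (3.12 and 5.68) fall below the line.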

How the data were processed

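RNA of cerebellum and cerebral cortex of 4 WT mice was measured on arrays, with the hippocampus and KO arrays used for context. The deposited log2 values were made by the authors with RMA, per the submitters' processing notes, which give no settings; RMA as usually run corrects background, quantile-normalizes arrays and summarises probes. On the 8 arrays compared, the highest value lay from 17.91 to 19.12. Of the 22206 rows, 291 exceeded 16, the log2 ceiling of 16-bit signals, on 1 array of the series or more. The 99th percentile was 15.29 for the cerebellum of animal 2, against 15.66 to 15.76 on the others. What gave these values was not tested, and folds in this report are folds on the deposited scale. The values were analysed on that scale and not normalized again. Gene names came from the platform annotation, which names 19572 of 22206 rows; of a symbol's several rows the brightest was used. Gene lengths and detection calls were not used here, the number of arrays limits the precision, and levels of different genes were not compared.

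limma 3.58.1 (R 4.3.3; lmFit and eBayes) was fitted to all 19572 rows with the animal number as a block, and p-values were adjusted by Benjamini-Hochberg over all rows. Called means an adjusted p under 0.05 and a difference of at least 1. The labels give the same animal numbers in both regions, and the check of this pairing in the WT data, given in the report, found it weak. In KO animals 1 to 4 the same-number correlations were 0.078, 0.085, 0.137 and 0.046. The highest correlations with unlike numbers there were 0.102, -0.003, -0.001 and 0.029. With 4 arrays against 4 and the pairing set aside, an exact permutation test could not go below 0.029. A test that keeps the pairs allows fewer arrangements, so its lowest p is higher. Nothing in the labels says how the animals were allotted to batches. The script was tested on simulated data.

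The comparison, gene lists and tests were chosen with earlier results of these data known. Named genes were the 12 largest called differences each way, and a selection from the opening 5 members of each list, its 4 largest called differences each way, members of gene families and reference genes. Gabrb2, Gad2, Gh, Kcnk9, Prl, Tlx3 and the families drawn in pairs were chosen after their values were seen. Promoters and start sites are RefSeq's on GRCm38.p6; 8 motifs were searched on both strands. Other normalizations, filters, fits and left-out animals were tried as alternatives.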

Additional observations from a re-analysis of the deposited data

Results flagged for a closer look

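In 28 of 446 groups of 4 arrays of a named gene, and in 2 of 104 of a gene list, the highest or lowest array lay so far from the other 3 that its gap to the nearest exceeded Dixon's 95% critical share of the group's range. Chance flags about 1 in 20 groups. No explanation of these gaps was tested.

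The cerebellum of WT animal 1 was the lowest of its region, on the log2 scale, for Aldh1l1 (10.35, gap share 0.856). The cerebellum of WT animal 2 was the lowest of its region, on the log2 scale, for Gabrb2 (15.27, gap share 0.868), Gapdh (16.76, gap share 0.985), Kcnc1 (15.08, gap share 0.878), Pvalb (14.84, gap share 0.847) and Snap25 (17.00, gap share 0.908). The cerebellum of WT animal 3 was the lowest of its region, on the log2 scale, for A2m (10.50, gap share 0.837), Sulf1 (10.31, gap share 0.868) and Ttr (9.65, gap share 0.839). The cerebellum of WT animal 3 was the highest of its region, on the log2 scale, for Bcl11a (10.50, gap share 0.855) and Pcdh10 (9.82, gap share 0.890). The cerebellum of WT animal 4 was the lowest of its region, on the log2 scale, for Emx1 (8.62, gap share 0.836) and Gabra2 (10.86, gap share 0.934). The cortex of WT animal 1 was the highest of its region, on the log2 scale, for Ttr (15.28, gap share 0.928). The cortex of WT animal 3 was the lowest of its region, on the log2 scale, for Cdh7 (10.11, gap share 0.887) and Slc1a3 (12.11, gap share 0.921). The cortex of WT animal 3 was the highest of its region, on the log2 scale, for Cdh9 (10.14, gap share 0.877), Homer3 (8.76, gap share 0.871), Kcnk9 (12.72, gap share 0.857), Lmo3 (15.30, gap share 0.876), Neurod2 (9.66, gap share 0.934), Prl (13.20, gap share 0.975), Reln (11.80, gap share 0.939), the cadherins and protocadherins list (10.51, gap share 0.863) and the axon guidance list (10.58, gap share 0.898). The cortex of WT animal 4 was the lowest of its region, on the log2 scale, for Lhx6 (8.48, gap share 0.893) and Npy (11.84, gap share 0.848). The cortex of WT animal 4 was the highest of its region, on the log2 scale, for Rgs8 (11.81, gap share 0.855), Tcf7l2 (15.09, gap share 0.991) and Tfap2b (8.56, gap share 0.897).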

How the results depend on the processing

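Against a test for a difference of more than 2-fold (treat), 1048 genes were called, 436 higher and 612 lower. Of the 223 named genes, 22 lost their call under that test. Without the animal block (no replicate block) the counts were 1961, 886 and 1075, and 1578 in KO animals; of the named calls only that of Ttr was lost, and the choroid plexus list had 2 calls in place of 5. The other settings gave totals from 1942 to 1985, and 0 calls in the opposite direction. Leaving out 1 animal at a time gave totals from 1911 to 2092, from 860 to 1044 higher and from 1048 to 1128 lower, and 1672 calls (85.1%) were made in all 4. In KO animals the count was 1562 without animals 1 and 4 and 1837 without animal 3. The genotype test called 0 genes without the block and 1 without KO animal 4. The calls of Agt, Cbln2 and Ttr were lost with a robust prior spread.

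Signs turned only for named genes that were not called. Under quantile normalization Camk2b was 0.139, Gapdh 0.096 and Mbp 0.075, and with median centring Camk2b was 0.019. With 1 animal left out at a time, values ran from -0.099 to 0.050 for Camk2b, -0.254 to 0.035 for Gapdh, -0.062 to 0.106 for Got1, -0.067 to 0.159 for Gria1, -0.12 to 0.016 for Hprt, -0.472 to 0.191 for Mbp, -0.018 to 0.203 for Pax5, -1.251 to 0.169 for Slc17a6, -0.051 to 0.208 for Snap25 and -0.162 to 1.854 for Tcf7l2. The cause was not tested.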
